A study of Mus musculus with 6 samples.

Results

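The genes described here encode the constitutive proteasome: the subunits of its 20S core particle and 19S regulatory particle, an assembly factor of the 19S base, and the subunits of the 11S activator caps. Members were taken by gene symbol from a list of 36 names. Each was read by the probe set, a group of short array probes against the same transcript, that had the highest mean over the 6 arrays among probe sets annotated with that symbol alone. A measurement was available for 34 of the 36, out of 18194 genes measured on the arrays. Adrm1, a ubiquitin receptor of the 19S base, and Psme2, a subunit of an 11S cap, had no probe set with a single symbol and were not analysed here. All 34 members passed a floor on low values, which kept 13587 genes that reached the median of all probe sets on at least 1 array.

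The proteasome degrades proteins tagged with ubiquitin. Its 20S core is a barrel of stacked rings, in which the outer alpha rings gate the entrance and the inner beta rings hold the proteolytic sites. The 19S particle recognises ubiquitin chains, removes them and unfolds the substrate with a ring of ATPases. In immune cells stimulated by interferons the 3 catalytic beta subunits can be replaced by immunoproteasome counterparts, which alter the peptides made for presentation on MHC class I. Transcription of the constitutive subunits is known to rise through the factor encoded by Nfe2l1 when proteasome activity is short. Akirin2, the gene deleted here, encodes a small nuclear protein that is known to bind the proteasome and to mediate its import into the nucleus.

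The samples were macrophages washed from the peritoneum of mice injected with thioglycollate, an irritant that recruits monocyte-derived macrophages. The mice were of the strain C57BL/6 x 129Sv and were either wild-type or LysM-Cre+;Akirin2fl/fl, termed Akirin2 KO. In the latter, Cre recombinase expressed from the lysozyme locus removes the floxed gene in myeloid cells, so cells of other lineages in the same preparation keep it. Cells of each genotype were unstimulated (0 h) or received 100 ng/ml lipopolysaccharide (LPS), a component of bacterial outer membranes, for 2 or 4 h. The labels do not state age, sex or how many mice were pooled for a sample. There was 1 array for each of the 6 conditions, so no condition has a replicate. All values below are on the log2 scale. An LPS difference was therefore tested by how well it recurred in the 2 genotypes, and a genotype difference by how constant it was over the 3 times, in limma fits to all 13587 genes. Nothing in the labels says that the samples came from separate mice, so the p-values measure only the spread between these samples, which may be technical.

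Correlations between arrays ranged from 0.958 to 0.989 over all probe sets. Akirin2 itself read 7.43, 7.47 and 7.33 in wild-type at 0, 2 and 4 h, and 5.18, 5.54 and 4.91 in Akirin2 KO, so every KO array lay below every wild-type array. All 11 macrophage markers measured passed the floor. Csf1r and Lyz2 were between 12.0 and 12.7 on all arrays, but other markers of the list varied. From 0 to 4 h Mertk went from 5.86 to 4.51 in wild-type and from 5.80 to 3.88 in KO. Fcgr1 went from 6.48 to 5.55 in wild-type and from 5.50 to 4.66 in KO. Of the markers of other cells, Mpo, Elane and Ltf of neutrophils, Pax5 of B cells, Cd3d and Cd3g of T cells, and Epx and Prg2 of eosinophils did not reach the floor. The rest of these lists did: 4 of 7 neutrophil, 4 of 5 B cell, 4 of 6 T and NK cell and 1 of 3 eosinophil markers. So did 5 of 6 mast cell markers and 8 of 9 markers of mesothelial cells and fibroblasts. In RNA of a mixed preparation, fewer cells of a type and less RNA per cell cannot be told apart.

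The first question was whether LPS changed the proteasome genes. At 4 h of LPS the members called all differed in a single direction. The labels list no unstimulated sample for 2 or 4 h, so LPS and hours in culture cannot be told apart. The test called 14 of 34 members higher at 4 h than at 0 h and 0 lower. Over all genes tested, 7.76% were called higher and 7.61% lower. The estimated difference was above 0 for all 34 members and for 46.8% of all genes. The member median was 0.51 on the log2 scale (1.42-fold), whereas the median over all 13587 genes was -0.026. Both 4 h arrays lay above both 0 h arrays for 32 of 34 members, the exceptions being Psmd6, by the probe set used, and Psmd13, against 23.3% of all genes. The change was moderate in size: it ran from 0.12 for Psmd13 to 1.20 for Psmd5, and only Psmd5 exceeded a doubling in the fit (2.29-fold).

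**Figure D1:**
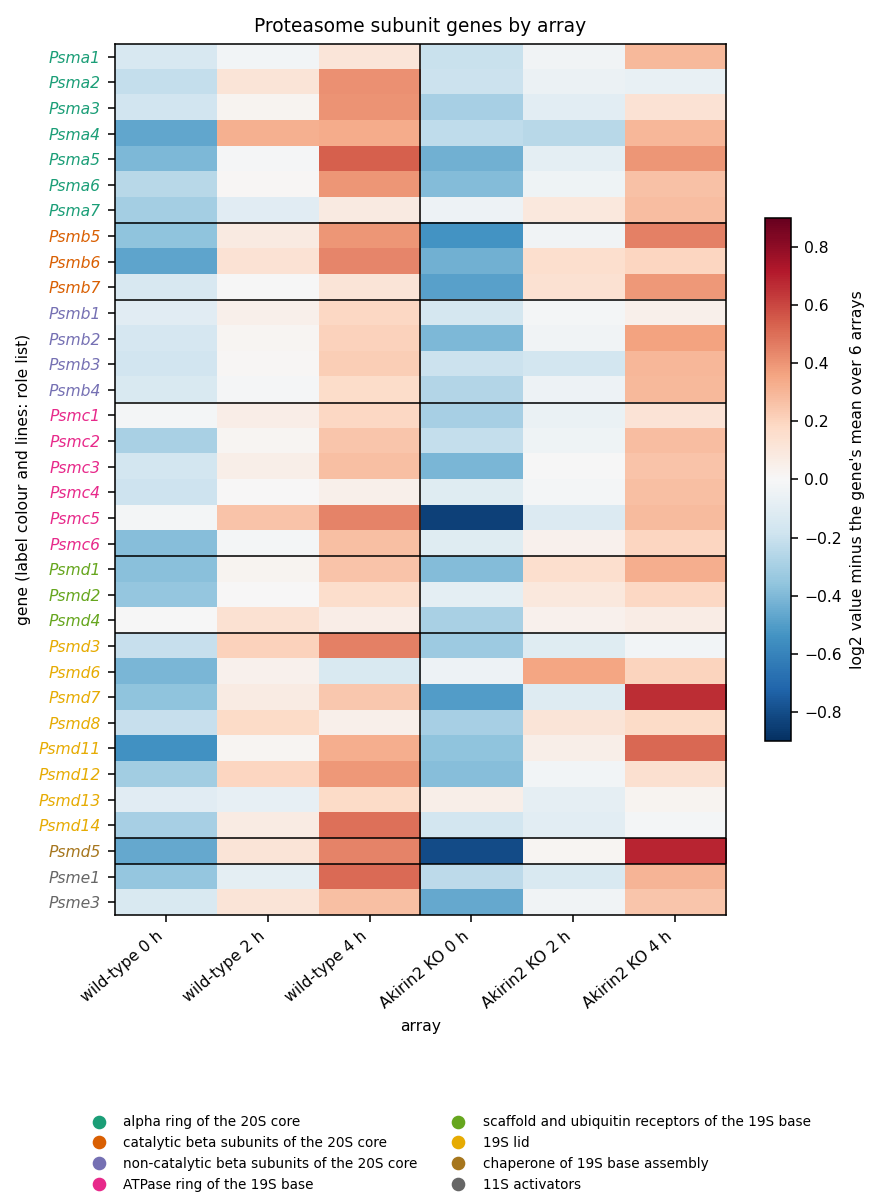
Heat map of the 34 members (rows, in blocks by role) on the 6 arrays (columns); colour is the log2 value minus the gene's own mean over the 6 arrays. Within each genotype most rows pass from blue at 0 h to red at 4 h, and the deepest blue cell is that of Psmc5 in Akirin2 KO at 0 h.

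At 2 h most of these genes stood between their 0 h and 4 h levels. The estimate was above 0 for 33 of 34 members, with Psmd13 (-0.052) the exception, and for 5923 of all 13587 genes. The median was 0.29 beside -0.042 over all genes. None of these passed in limma at 2 h: 0 members were called higher or lower, where 3.96% of all genes were called higher and 2.89% lower. Psmd5 (adjusted p = 0.0541) and Psmb6 (adjusted p = 0.0588) came nearest. An unadjusted p under 0.05 was reached by 10 of 34 members and by 2756 of all 13587 genes. The 2 h estimate was a median of 54.9% of the 4 h estimate. Values climbed at both steps, from 0 to 2 h and from 2 to 4 h, for 28 members in both genotypes, as for 9.4% of all genes. In wild-type 31 members did so and in Akirin2 KO 30. The share of all genes in each genotype alone is not given here. The step from 2 to 4 h was not called for any member in limma (0 of 34, with 7 at an unadjusted p under 0.05), where 1.56% of all genes were called higher and 1.11% lower. Of all 13587 genes, 1766 had an unadjusted p under 0.05 for this step.

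**Figure D2:**
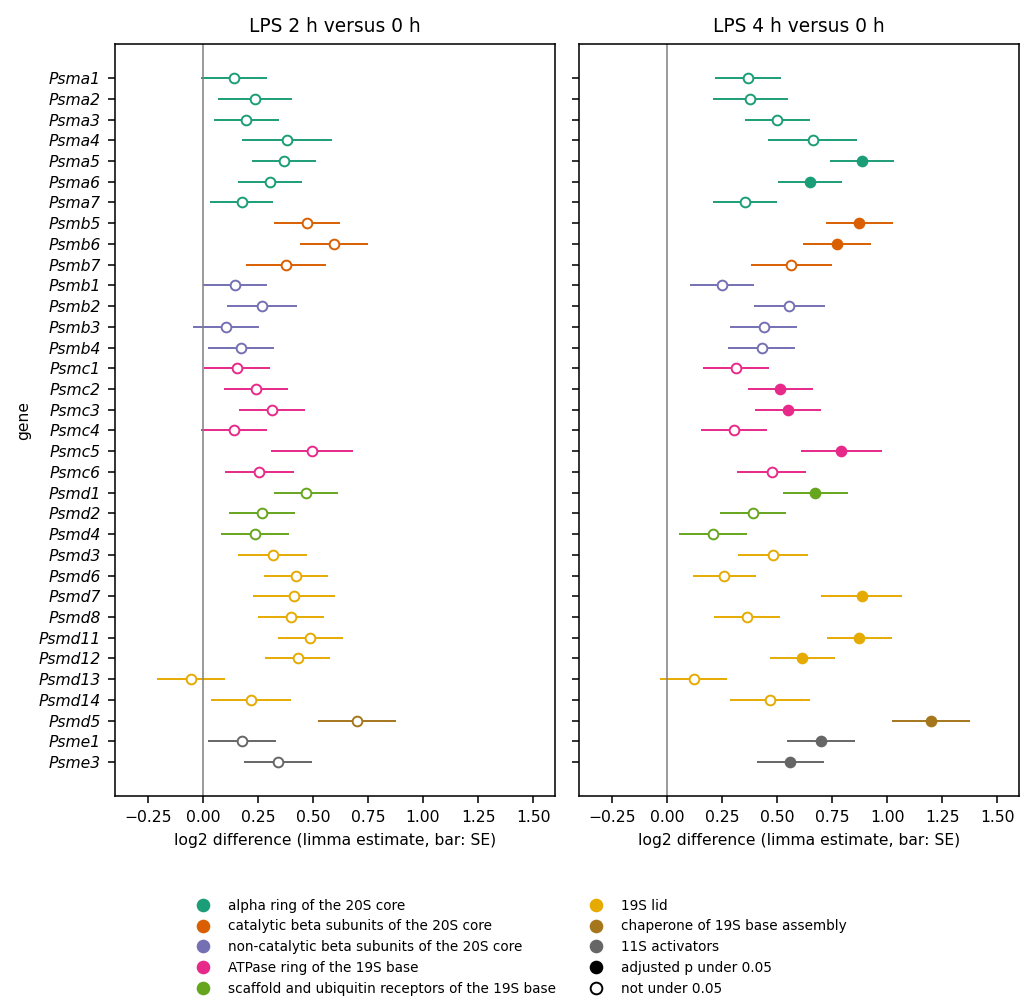
Estimated log2 differences of each member at 2 h (left) and 4 h (right) of LPS against 0 h over both genotypes, with bars for the standard error; filled symbols have an adjusted p under 0.05 and colours give the role. No symbol is filled at 2 h and 14 are filled at 4 h, where all 34 lie to the right of 0.

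The largest rise was that of Psmd5, whose product is not a subunit of the finished particle but a chaperone that holds ATPases during assembly of the 19S base. It read 6.39, 6.96 and 7.29 in wild-type at 0, 2 and 4 h, and 6.04, 6.86 and 7.53 in Akirin2 KO. The groups by time did not overlap, and KO was the lower genotype at 0 h and the higher at 4 h. Psmd5 rose by 1.20 at 4 h (SE 0.18, adjusted p = 0.00245).

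Among the 7 alpha subunits, which form the outer rings of the core and its gate, Psma5 and Psma6 rose and 5 did not pass, with a median estimate of 0.50. Psma5 read 7.53, 7.92 and 8.47 in wild-type and 7.50, 7.85 and 8.33 in Akirin2 KO, a nearly parallel course in the genotypes. It rose by 0.88 (SE 0.15, adjusted p = 0.00423). Psma6 rose by 0.65 (adjusted p = 0.0183). Psma3, at 0.50 (adjusted p = 0.0544), and Psma4, at 0.66 (adjusted p = 0.0639), lay just outside the threshold. Psma4 followed a different course in the genotypes. It read 5.69, 6.48 and 6.49 in wild-type but 5.94, 5.91 and 6.46 in Akirin2 KO, so that its higher level was already present at 2 h in wild-type and only at 4 h in KO. The smallest estimate of the ring was that of Psma7, with 7.92, 8.13 and 8.31 in wild-type against 8.18, 8.33 and 8.50 in KO (0.35, adjusted p = 0.151).

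The 3 catalytic subunits had a higher median estimate (0.77) than the 4 beta subunits without a catalytic site (0.43); this difference between small lists was not tested. Psmb5 carries the chymotrypsin-like site, Psmb6 the caspase-like site and Psmb7 the trypsin-like site. Psmb5 read 7.43, 7.87 and 8.19 in wild-type and 7.25, 7.76 and 8.25 in Akirin2 KO, and rose by 0.87 (SE 0.15, adjusted p = 0.00535). Psmb6 read 7.50, 8.10 and 8.41 in wild-type against 7.54, 8.13 and 8.17 in KO, and rose by 0.77 (SE 0.15, adjusted p = 0.011). For both, each 2 h value exceeded both 0 h values and stayed below both 4 h values. Psmb7 did not pass (0.57, adjusted p = 0.0755). Its values were 7.16, 7.30 and 7.42 in wild-type against 6.82, 7.44 and 7.70 in KO, so its LPS difference at 4 h was 0.26 in wild-type and 0.87 in KO. Of Psmb1, Psmb2, Psmb3 and Psmb4, 0 of 4 passed. Psmb2 had the largest estimate (0.56, adjusted p = 0.0508), with 5.15, 5.31 and 5.50 in wild-type against 4.89, 5.27 and 5.65 in KO. Psmb1 had the smallest (0.25, adjusted p = 0.316), with 7.16, 7.31 and 7.45 in wild-type against 7.10, 7.25 and 7.31 in KO.

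The 6 ATPases of the 19S base thread substrates into the core. Psmc2, Psmc3 and Psmc5 rose and Psmc1, Psmc4 and Psmc6 did not pass, with a median estimate of 0.50. Psmc5 had the largest estimate of the ring (0.79, SE 0.18, adjusted p = 0.0219). It read 6.28, 6.56 and 6.75 in wild-type and 5.46, 6.18 and 6.58 in Akirin2 KO, and the KO value at 0 h stood apart as the lowest. Without that array its estimate was 0.52 (adjusted p = 0.0846), and without the KO array at 4 h it was 0.57 (adjusted p = 0.133). Psmc4, at the other end of the ring, read 10.1, 10.3 and 10.4 in wild-type against 10.2, 10.3 and 10.6 in KO (0.30, adjusted p = 0.233).

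Of the remaining base subunits, Psmd1 rose and Psmd2 and Psmd4 did not pass. Psmd1 and Psmd2 are the large scaffold proteins of the base, and Psmd4 is a ubiquitin receptor. Psmd1 read 8.17, 8.57 and 8.80 in wild-type and 8.16, 8.70 and 8.88 in Akirin2 KO, and rose by 0.67 (SE 0.15, adjusted p = 0.0159). Psmd4 read 5.82, 5.97 and 5.88 in wild-type against 5.54, 5.87 and 5.90 in KO (0.21, adjusted p = 0.427). The gene of this receptor thus showed most of its difference at 2 h, and the wild-type value at 4 h exceeded that at 0 h by 0.062.

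The lid carries the subunit that removes ubiquitin chains. There Psmd7 and the scaffold subunits Psmd11 and Psmd12 rose and 5 of 8 members did not pass (median estimate 0.48). Psmd11 read 8.44, 9.0 and 9.31 in wild-type and 8.62, 9.03 and 9.50 in Akirin2 KO. It rose by 0.87 (SE 0.15, adjusted p = 0.00481), a call lost when all its probe sets were averaged (0.28, adjusted p = 0.162). Psmd7 is the inactive partner of the deubiquitinase Psmd14. It read 3.28, 3.71 and 3.88 in wild-type against 3.14, 3.53 and 4.30 in KO. At 0 h its KO value lay below the median of all probe sets on that array, which is the floor, and its wild-type value just above it, so the size of its difference is poorly measured. It rose by 0.88 (SE 0.19, adjusted p = 0.0139), a call lost when its probe sets were averaged (0.37, adjusted p = 0.0804). Psmd14 itself read 8.51, 8.88 and 9.30 in wild-type but 8.64, 8.71 and 8.79 in KO. Its estimate of 0.47 (adjusted p = 0.133) therefore averages a difference of 0.79 in wild-type and 0.15 in KO. Psmd13 was the member that differed least, with 4.38, 4.41 and 4.66 in wild-type against 4.54, 4.40 and 4.51 in KO (0.12, adjusted p = 0.663); its next brightest probe set gave -0.10. Psmd6 and Psmd8 were highest at 2 h in wild-type, at 9.46 and 7.79 against 9.29 and 7.66 at 4 h. For Psmd6 this holds for the probe set used: a second, nearly as bright (mean 9.34 against 9.42), climbed at both steps in both genotypes, with 9.20, 9.28 and 9.61 in wild-type against 9.19, 9.31 and 9.43 in KO.

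The 11S caps open the core without ATP or ubiquitin. Psme1 encodes a subunit of the interferon-responsive cap and Psme3 the subunit of a nuclear cap, and both rose. Psme1 read 6.80, 7.05 and 7.66 in wild-type and 6.91, 7.01 and 7.45 in Akirin2 KO (0.70, SE 0.15, adjusted p = 0.0175). Most of its increase fell between 2 and 4 h, where its estimate of 0.52 was the largest of the 34 members (adjusted p = 0.153). Psme3 read 6.28, 6.53 and 6.69 in wild-type against 5.95, 6.38 and 6.66 in KO (0.56, SE 0.15, adjusted p = 0.0416).

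How far these calls hold was checked on single arrays and with arrays left out. In wild-type alone the 4 h minus 0 h difference was above 0 for 34 members and for 5924 of all 13587 genes. It reached 1.5-fold upwards for 15 members and downwards for 0, where 8.16% and 13.3% of all genes did so. In Akirin2 KO it was above 0 for 33 members and for 7052 of all 13587 genes. There it reached 1.5-fold upwards for 13 members and downwards for 0, where 10.2% and 7.6% of all genes did so. The member medians were 0.52 and 0.51, but depended on scaling: with arrays centred on the median gene they were 0.69 in wild-type and 0.41 in KO, where the median over all genes was 0.10 and -0.083. At 2 h the medians were 0.29 in wild-type and 0.28 in KO, and 2 and 3 members reached 1.5-fold, beside 5.38% and 6.53% of all genes; 0 members were lower by that much in either, where 9.21% and 4.93% of all genes were. Without the wild-type array at 4 h the test called 6 members, and without the KO array at 4 h also 6; leaving out any of the other 4 arrays gave 12 to 14. Psma6, Psmc2, Psmc3, Psmd1, Psmd12 and Psme3 lost their call without either 4 h array, Psmb6 and Psme1 without that of wild-type alone, and Psmc5 and Psmd7 without that of KO alone. Leaving out a 0 h or 2 h array also cost calls: Psmc2, Psmd12 and Psme1 without wild-type 0 h, Psmc2, Psmc3, Psmc5 and Psme3 without KO 0 h, and Psmc2, Psmc3 and Psme3 without either 2 h array. Psma5, Psmb5 and Psmd5 kept it in all 15 alternatives run for the 4 h comparison, with estimates above 0 for all 34 members without any 1 array. With an array left out, the share of all genes called is not given here. Fewer calls among all genes and fewer among the members alone therefore cannot be told apart. Among genes above a higher floor, the 75th percentile of all probe sets, 15 of 33 members were called higher, beside 15.1% of all genes.

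Other measures moved with LPS as well. RNA quality was read from control probes at both ends of a transcript. For Actb the 3′ probes exceeded the 5′ probes by 4.22, 4.16 and 4.09 in wild-type at 0, 2 and 4 h, and by 4.64, 4.50 and 4.36 in Akirin2 KO. For Gapdh the excess was 4.33 to 4.42 in wild-type and 4.34 to 4.52 in KO. Of 4 neutrophil markers above the floor S100a8 rose at 4 h (1.26, adjusted p = 0.00116) and 3 did not pass, of which S100a9 stood at -0.46 (adjusted p = 0.0941). On a linear scale the 7 neutrophil markers measured summed to 355 and 365 at 0 h, and 4 h later to 582 and 667, with Mpo, Elane and Ltf below the floor; S100a8 was the only marker of this list called, and it makes up most of the sum at 4 h. Of 11 macrophage markers 1 rose (Cd14) and 4 fell at 4 h, and their sum was 17911 and 20203 at 0 h, against 18370 and 18611 later. Of 6 markers of resident peritoneal macrophages Cxcl13 rose and Icam2, F5 and Selp fell, and the list summed to 614 and 1203 at 0 h and to 798 and 1275 at 4 h. Of 4 B cell markers above the floor Ighm fell at 2 h (-0.87, adjusted p = 0.016) and at 4 h (-0.57, adjusted p = 0.0489), the estimates of all 4 were below 0 at 4 h, and the 5 measured summed to 121 and 138 at 0 h and to 95 on both 4 h arrays. The part of these measures in the rise of proteasome genes was not tested.

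Genes with more than a single probe set offered a further reading of the 4 h difference. Of the 19 members with at least 2 probe sets above the floor, the next brightest probe set gave the larger difference for 11 and the smaller for 8, with a median of 0.017 for next minus brightest. The tally split by brightness. Of the 19, 12 had a next brightest probe set with a mean of 5 or more, a limit chosen after the values were seen. In 11 of these 12 the next brightest probe set gave the larger difference, with a median of 0.12 over the 12 and Psmd11 as the exception. For Psmc4 the brightest gave 0.30 and the next 0.52, for Psmb4 0.43 and 0.63, and for Psme3 0.56 and 0.86. Every difference in these 12 pairs was above 0. In all 7 members whose next brightest probe set was dimmer it gave the smaller difference, with a median of -0.26, and in 4 of the 7 the difference was above 0 in both. For Psma3 the next brightest, with a mean of 3.38, gave -0.61 against 0.50.

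**Figure D3:**
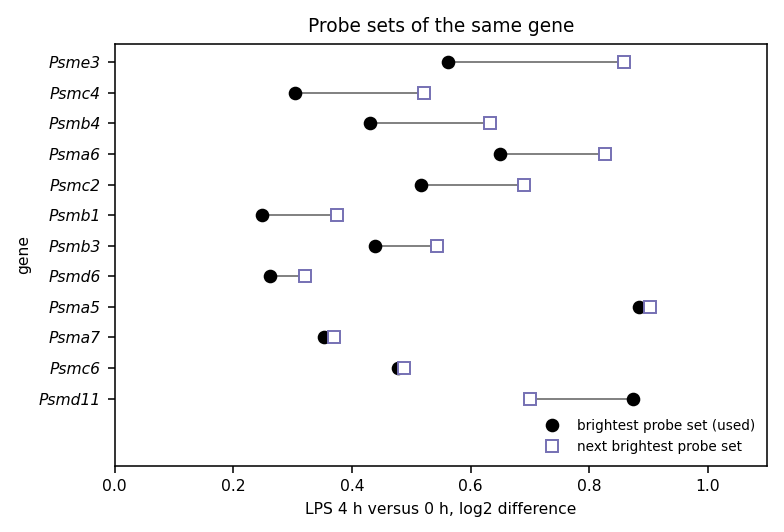
LPS 4 h versus 0 h differences (log2, x axis) of the brightest and the next brightest probe set of the 12 members whose next brightest probe set had a mean of 5 or more. The open square lies to the right of the filled circle in 11 of 12 genes; the 7 members with a dimmer next brightest probe set, where it gave the smaller difference, are not drawn.

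Promoter sequences were drawn from RefSeq (GRCm38.p6) to show the DNA of genes that moved together and of the gene that differed least. Windows of 300 bases, from 250 before the transcript start to 50 after it, were found for 28 of the 34 measured members and for 12 of the 14 that rose. The core of the antioxidant response element, TGACNNNGC, which the Nfe2l1 and Nfe2l2 products are known to bind, was searched on both strands. It was in 5 of 33 member windows (15.2%) and in 12.4% of all 32851 windows. The 33 windows came from 30 genes, including Adrm1 and Psme2, which had no values here, and 3 genes had 2 windows each. The matches lay in Psmb5, Psmb6 and Psmd12, which rose, and in Psmc6 and Adrm1. Stretches of 150 bases before the listed start are given for the 4 members with the largest rises that have a window, Psmd5, Psma5, Psmb5 and Psmd11, and for Psmd13. Each ends before the outermost RefSeq transcript start of its gene, so that of Psmd5 ends 3 bases before the listed start. For Psmb6 the last 30 bases before the listed start are given because they hold its match, which lies after the outermost start of that gene. All are written 5′ to 3′ on the gene's strand, with matches to the core in capitals.
Psmd5, chr2:34870966-34871115, minus strand: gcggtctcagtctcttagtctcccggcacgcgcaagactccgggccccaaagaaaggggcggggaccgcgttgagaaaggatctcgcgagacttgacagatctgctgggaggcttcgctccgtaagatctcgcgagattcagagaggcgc
Psma5, chr3:108256776-108256925, plus strand: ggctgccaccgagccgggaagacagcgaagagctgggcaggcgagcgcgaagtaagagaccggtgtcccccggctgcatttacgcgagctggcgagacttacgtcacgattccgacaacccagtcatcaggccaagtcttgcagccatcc
Psmd11, chr11:80428465-80428614, plus strand: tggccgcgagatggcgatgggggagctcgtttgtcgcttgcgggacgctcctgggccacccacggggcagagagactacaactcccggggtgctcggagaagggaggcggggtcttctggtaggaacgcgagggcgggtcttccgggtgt
Psmb5, chr14:54617996-54618145, minus strand: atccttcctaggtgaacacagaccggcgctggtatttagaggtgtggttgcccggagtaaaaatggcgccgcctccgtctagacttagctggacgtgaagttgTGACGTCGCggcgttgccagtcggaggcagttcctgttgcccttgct
Psmb6, chr11:70525327-70525356, plus strand: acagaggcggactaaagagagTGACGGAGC
Psmd13, chr7:140882244-140882393, plus strand: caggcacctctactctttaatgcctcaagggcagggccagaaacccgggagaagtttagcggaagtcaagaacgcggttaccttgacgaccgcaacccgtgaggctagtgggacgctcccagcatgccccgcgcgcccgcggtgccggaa

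The match in Psmb5 began 47 bases and that in Psmb6 9 bases before the listed start, while that in Psmd12 (GCTGTGTCA, the core on the opposite strand) began 247 bases before it. No match was found in the windows of Psmd5, Psma5 and Psmd11, which had 3 of the largest rises, nor in that of Psmd13. Other motifs were counted in the same way. The CCAAT box was in 36.4% of member windows and 37.4% of all windows, and the kappa B core (GGG and CC with 5 bases between) in 60.6% and 50.8%. The core of the interferon-stimulated response element, GAAA repeated with 2 bases between, was in 3 member windows (9.09%, against 3.44% of all), those of Psme1, Psmb3 and Psmd4. In Psme1, which rose mostly after 2 h, it read TTTCGCTTTC on the gene's strand and began 10 bases after the start. The gamma-activated sequence TTCNNNGAA was in 1 member window (3.03%, against 8.3%). The matches to the antioxidant response element core overlapped no match to another of these motifs. The share of G and C had a median of 58.4% over member windows and 52.4% over all windows. A match is a description of letters and not a binding site.

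The second question was whether loss of Akirin2 changed the level of the proteasome genes. No member passed in limma: 0 of 34 were called higher and 0 lower over the 3 times, with 3 at an unadjusted p under 0.05 (Psmc5, Psmd6 and Psmd3). Over all genes 0.891% were called higher and 1.06% lower, and 2091 of 13587 had an unadjusted p under 0.05. The median difference between Akirin2 KO and wild-type was -0.054 over the members and -0.011 over all genes. The 95% interval of the difference lay within 1.5-fold in either direction for 31 of 34 members. The widest reach was that of Psmc5, at -0.45 with an interval from -0.80 to -0.11 (adjusted p = 0.199). It shrank from -0.82 in unstimulated cells to -0.38 at 2 h and -0.16 at 4 h. Psmd6 was higher in KO by 0.36, 0.31 and 0.33, an estimate of 0.34 with an interval from 0.067 to 0.61 (adjusted p = 0.22). Its second probe set gave -0.054. Psmd3, a lid subunit, stood at -0.30 with an interval from -0.60 to -0.0096 (adjusted p = 0.308).

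Single array pairs gave a median of -0.058 at 0 h, -0.059 at 2 h and -0.00033 at 4 h, where 17 members were higher and 17 lower in KO. The sign at 0 h depended on scaling: with arrays centred the medians were 0.10, -0.059 and -0.11, beside 0.087, 0.0047 and -0.076 over all genes. Only 1 member differed by 1.5-fold at any time, Psmc5 at 0 h, where 3.6% of all genes were 1.5-fold higher and 6.62% lower in KO. No member did so at 2 h (3.09% of all genes higher, 2.72% lower) or at 4 h (4.7% higher, 3.32% lower). KO lay below wild-type at all 3 times for 10 members and above it for 4, beside 20.4% and 17.2% of all genes. The Actb probe difference was higher in KO at each time, as given above, and the summed level of mesothelial and fibroblast markers was lower in KO (441 to 517) than in wild-type (703 to 774); Col1a2 was called lower (-0.83, adjusted p = 0.0372) and the other 7 of its 8 markers above the floor were not. Lum did not reach the floor. Among the 11 macrophage markers Fcgr1, C1qa and C1qc were called lower in KO, and the list summed to 17911 to 18674 in KO and 18611 to 20413 in wild-type. Of 6 markers of resident peritoneal macrophages Cxcl13 was called lower, and the list summed to 614 to 798 in KO and 1050 to 1275 in wild-type. The part of these markers in the genotype values was not tested.

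The third question was whether the response to LPS differed between genotypes. The test of the difference passed for 0 of 34 members in limma, with 1 at an unadjusted p under 0.05, where 0.00736% of all genes were called higher and 0.0221% lower. Of all 13587 genes, 1739 had an unadjusted p under 0.05 in this test. The fit for this test had 1 residual degree of freedom. Estimates ran from -0.55 for Psma4 (adjusted p = 0.441) to 0.55 for Psmb7 (adjusted p = 0.385). Psmc5 stood at 0.55 (adjusted p = 0.395), Psmd14 at -0.48 (adjusted p = 0.472) and Psmd5 at 0.42 (adjusted p = 0.543). The members thus scattered to both sides, with 16 estimates above and 18 below 0. Their median was -0.032 beside 0.10 over all genes, and with arrays centred -0.25 beside -0.11.

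**Figure D4:**
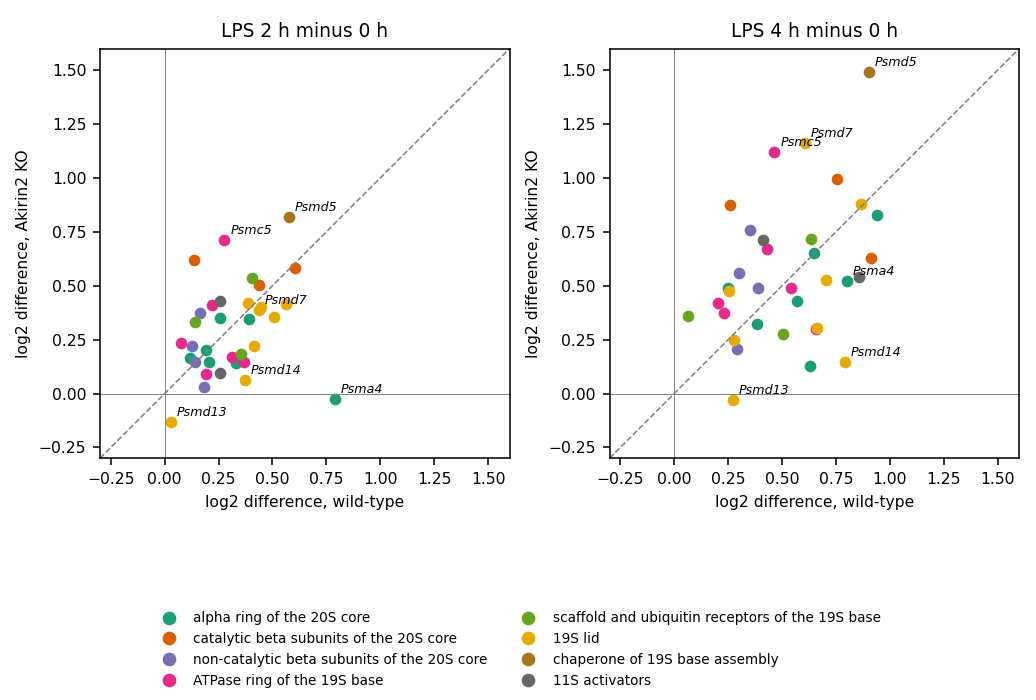
LPS difference of each member in Akirin2 KO (y axis, log2) against that in wild-type (x axis, log2) at 2 h (left) and 4 h (right); each point is a gene coloured by role, from single arrays, and the dashed line marks equal differences. Most points lie above 0 on both axes, Psmd5 and Psmc5 lie above the line and Psma4 and Psmd14 below it.

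Genes around the proteasome were read from lists chosen by function. All 3 immunoproteasome subunits rose at 4 h. Psmb10 read 5.88, 6.38 and 7.13 in wild-type and 5.37, 5.82 and 6.52 in Akirin2 KO, and rose by 1.20 (SE 0.15, adjusted p = 0.000893). Psmb8 read 6.39, 6.23 and 7.52 in wild-type against 5.82, 6.02 and 6.71 in KO. It rose by 1.02 at 4 h (SE 0.18, adjusted p = 0.00595), with an estimate of 0.025 at 2 h. Psmb9 read 4.66, 4.43 and 5.47 in wild-type against 4.22, 4.34 and 4.75 in KO, and rose by 0.67 at 4 h (SE 0.18, adjusted p = 0.0406) after -0.057 at 2 h. At 2 h Psmb10 stood at 0.48 (adjusted p = 0.101), and the constitutive Psmb5, Psmb6 and Psmb7 at 0.47, 0.59 and 0.38, none of which passed. Each immunoproteasome gene was lower in KO on every array pair, by 0.53 for Psmb8 (adjusted p = 0.125), 0.41 for Psmb9 (adjusted p = 0.227) and 0.56 for Psmb10 (adjusted p = 0.0587), none of which passed. The constitutive counterparts Psmb5, Psmb6 and Psmb7 stood at -0.077, -0.059 and 0.025. Whether the counterparts differ in their genotype difference was not tested.

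**Figure D5:**
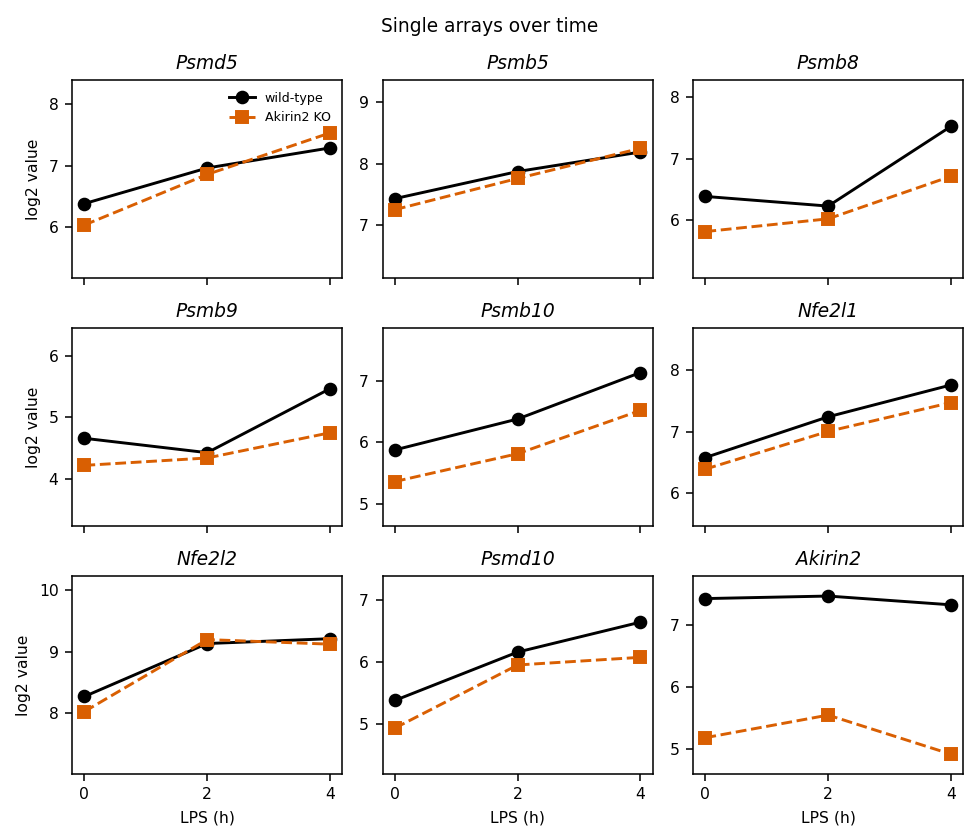
Log2 values of single arrays (y axis, each panel spanning 3.2 units) against hours of LPS (x axis) for 9 genes, wild-type in black circles and Akirin2 KO in orange squares. Psmd5 and Psmb5 have crossing lines, with KO lower at 0 h and higher at 4 h, the 3 immunoproteasome genes lie lower in KO at all times, and Nfe2l1 climbs at each step.

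Of 10 genes above the floor listed for the transcriptional control of proteasome genes, 3 rose at 4 h and 0 fell. Nfe2l1, whose product drives proteasome genes, read 6.58, 7.24 and 7.76 in wild-type and 6.39, 7.01 and 7.47 in Akirin2 KO. It rose by 0.64 at 2 h (adjusted p = 0.0377) and by 1.13 at 4 h (SE 0.15, adjusted p = 0.0012). Nfe2l2, the regulator of antioxidant genes, rose by 1.01 at 2 h (adjusted p = 0.00595) and at 4 h (SE 0.15, adjusted p = 0.0028), with 8.27, 9.13 and 9.21 in wild-type against 8.03, 9.19 and 9.12 in KO. Mafg, a partner of both, rose by 0.69 at 4 h (adjusted p = 0.0209). The subunits of the CCAAT-binding factor, Nfya, Nfyb and Nfyc, did not pass.

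Assembly chaperones did not move together. Of 7 measured, Psmd10, a chaperone of the 19S base like Psmd5, rose by 0.90 at 2 h (adjusted p = 0.0115) and by 1.21 at 4 h (SE 0.16, adjusted p = 0.00128). Its values were 5.38, 6.16 and 6.65 in wild-type and 4.93, 5.95 and 6.08 in Akirin2 KO. Psmd9, a further base chaperone, fell by 0.75 at 4 h (SE 0.17, adjusted p = 0.0202), from 3.92 to 3.43 in wild-type and from 4.57 to 3.57 in KO. The core chaperones Pomp (0.43, adjusted p = 0.0859) and Psmg1 to Psmg4 did not pass. Psmg1, Psmg3 and Psmg4 were also near the floor, with means over the arrays of 3.69, 3.66 and 3.49.

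Of 8 proteasome-associated factors, Ecpas, a scaffold that binds the proteasome, rose by 0.93 (adjusted p = 0.00394) and the deubiquitinase Usp14 by 0.65 (adjusted p = 0.0452) at 4 h. The alternative activator Psme4 (0.22, adjusted p = 0.412) and the inhibitor Psmf1 (0.38, adjusted p = 0.424) did not pass. Upstream, the unfoldase Vcp rose by 0.89 (adjusted p = 0.00735) and the ubiquitin shuttle Rad23b by 0.65 (adjusted p = 0.0206), while the other 5 shuttle and cofactor genes measured did not pass. Uba6, a ubiquitin-activating enzyme and the only gene measured of its list, rose by 0.56 (adjusted p = 0.0404). Of 5 genes of nuclear import none was called at 4 h in limma (0 of 5, 2 at an unadjusted p under 0.05, as were 3826 of all 13587 genes). Ipo9, the importin that carries the proteasome with Akirin2, stood at 0.25 (adjusted p = 0.408). Between genotypes Akirin2 alone was called among these lists of genes around the proteasome.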

How the data were processed

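Expression was measured on 6 arrays, 1 for each genotype and time. The deposited values are log2 expression per probe set, computed by the authors with RMA according to the submitters' processing notes. RMA subtracts background, makes the arrays' distributions equal and summarises probes, so a shift shared by all genes is removed. The sources used here name no version. Platform annotation gave 1 symbol to 34958 of 45101 probe sets. Limma 3.58.1 in R 4.3.3 was fitted to all 13587 genes above the floor with time and genotype as additive terms (2 residual degrees of freedom), and again with genotype by stimulation (1 residual degree of freedom), with Benjamini-Hochberg adjustment over all genes and a threshold of 0.05. The script was tested on simulated data. The members and lists were chosen with earlier results of these data known. Values over all arrays are given for up to 6 called members a comparison and for the extremes of each role at 4 h, and a few others were named after their values were seen. Alternatives covered the floor, probe sets, scaling, variance model, threshold and arrays left out.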

Additional observations from a re-analysis of the deposited data

How the results depend on the processing

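Arrays carry no read depth, and their number, 1 per condition, limits the precision. At 4 h of LPS the count of 14 members called higher was 26 when eBayes used a trend with robust variances, 22 at a threshold of 0.1 and 6 to 14 with an array left out. At 2 h the count of 0 became 10 with trend and robust, 3 at a threshold of 0.1, 2 with probe sets averaged, 1 with the higher floor or arrays centred, and 0 to 2 with an array left out. From 2 to 4 h it became 5 with trend and robust and 0 to 1 with an array left out. Between genotypes 1 member was called higher with trend and robust. The counts past 1.5-fold at 2 h (2 in wild-type, 3 in Akirin2 KO) were 1 and 1 with quantile normalization again, 8 in wild-type with arrays centred, and 0 and 0 at 2-fold; at 4 h they were 0 and 3 at 2-fold. The KO-minus-wild-type count lower was 2 at 4 h with arrays centred and 0 at 0 h at 2-fold. Psmd13 at 4 h was -0.10 without _x and _s probe sets, and Psma3 was below 0 with its probe sets averaged. At 2 h Psmb8 was -0.042 with probe sets averaged, -0.035 with quantile normalization again and -0.22 to 0.27 with an array left out, and Psmb9 was 0.011 with arrays centred and -0.30 to 0.19 with an array left out. For the counts above, of members called or past a fold limit, the share of all genes under the same setting is not given here. The counts show how far they depend on the processing and are no result about the members. The cause of these changes was not tested. The fit itself compares arrays within genotype and within time; no replicate block could be added, since each condition has 1 array and the labels carry no replicate numbers.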
